A study of Mus musculus with 24 samples.

Results

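The levels of 9 circadian clock genes were followed through 24 RNA-seq libraries from mice with and without the microRNA miR-155. The 9 genes are Arntl and Clock, which activate, Per1, Per2, Cry1, Nr1d1, Nr1d2 and Bhlhe40, which repress, and Dbp, an output of the loop. They are 9 of the 20673 genes in the count files and were found there by symbol. The set was chosen by the level of Nr1d1, which was higher in miR-155 knockout (KO) macrophages than in wild type (WT) ones, so every KO against WT value from macrophages is a description with no test.

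The libraries fall into 8 groups of 3, a KO and a WT group for each of 4 activated primary immune cell types, all from C57BL/6J mice. B cells came from spleen by depletion of CD43+ cells and were given lipopolysaccharide (LPS, 25 ug/ml) with interleukin 4 (6.5 ng/ml). Dendritic cells were CD11c+ spleen cells, activated with GM-CSF at 20 ng/ml plus LPS at 100 ng/ml, and their donors of both genotypes had carried a B16 melanoma that secretes Flt3 ligand, a tumour graft that expands dendritic cells. Macrophages were taken from the peritoneum after thioglycollate and given 100 ng/ml LPS. CD4 T cells were CD25-CD44- cells of lymph node and spleen, activated with beads against CD3 and CD28. The KO is labelled as a genotype of the whole mouse and is not said to be limited to 1 cell type. The labels used here name no hour of collection, no time between activation and harvest and no age of the mice. The design calls the 3 libraries of a group sequencing replicates and names no separate mice, so the p-values reflect how much these libraries vary, a spread that may be technical.

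Counts assigned to genes ranged from 7428821 to 14219823 per library. The summed markers of each labelled cell type were highest in its own libraries: 2891 to 3264 CPM (gene counts scaled to a common library size) for the B cell list, 11690 to 16170 for the dendritic list, 7275 to 12340 for the macrophage list and 1264 to 1370 for the CD4 T cell list. The microRNA's own transcript is not analysed here, so the KO label was not checked on the targeted gene. CPM values below were scaled for composition (TMM) over the 24 libraries. Levels that are compared between genes were also divided by coding length, as CPM per kb.

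In the mammalian clock the proteins of Arntl (BMAL1) and Clock bind E-box sequences as a pair and switch on the Per, Cry, Nr1d and Dbp genes. PER and CRY proteins then return to the nucleus and inhibit that pair, which closes the main loop. A side loop acts through ROR response elements, where ROR receptors activate and the REV-ERB receptors, products of Nr1d1 and Nr1d2, repress Arntl and Clock. In macrophages, REV-ERB proteins are also known to repress inflammatory genes at distal enhancers. Bhlhe40 (DEC1) competes at E-boxes and has further roles in lymphocytes and myeloid cells. DBP binds D-box elements, for example in Per genes.

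MicroRNA miR-155 pairs with messages mainly through its seed, bases 2 to 8, and lowers their level. Its mature form is encoded at chr16:84714143-84714165 on the plus strand (RefSeq, GRCm38.p6). In every member the longest 3′ UTR of GENCODE M21 was searched for the reverse complement of the seed with or without an A opposite base 1 (8mer, 7mer-m8, 7mer-A1) and for the 6mer GCATTA. Matches were found in 4 members: Arntl with a pair of 7mer-A1 sites, Clock with a 7mer-m8 and a 7mer-A1, Bhlhe40 with a 7mer-A1 and Nr1d2 with 6mers only. In the lines that follow the first is the microRNA with its seed in capitals, and the others are target windows with the matching bases in capitals, all 5′ to 3′. Coordinates are those of the capitals in GRCm38, and the windows come from GENCODE M21 transcripts.
mmu-miR-155-5p: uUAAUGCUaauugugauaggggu
Arntl 7mer-A1, chr7:113313659-113313665, plus strand: agtatcaaagtGCATTAAtggtgaagtt
Arntl 7mer-A1, chr7:113313854-113313860, plus strand: gtggatagcttGCATTAAttgtatattt
Clock 7mer-m8, chr5:76216126-76216132, minus strand: ttgatacagaaAGCATTAtctgtccctc
Clock 7mer-A1, chr5:76212808-76212814, minus strand: ttgtatcttagGCATTAAccgtttttaa
Nr1d2 6mer, chr14:18204397-18204402, minus strand: ttaaaatatggGCATTAtctcatcaga
Nr1d2 6mer, chr14:18204374-18204379, minus strand: cagacttatggGCATTAtgttaacaag
Bhlhe40 7mer-A1, chr6:108666894-108666900, plus strand: tcatgtgcctgGCATTAAaaacaatatt
These windows are shown because they are what a microRNA could pair with directly in the members. No such match was in the longest 3′ UTR of Per1, Per2, Cry1, Nr1d1 or Dbp. Among 19447 genes of the files with an annotated 3′ UTR, 12.8% held an 8mer or 7mer and 20% held any match with 6mers included. The UTRs differ in length, from 288 bases in Nr1d1, 323 in Dbp and 507 in Arntl to 6831 in Clock. Longer ones hold chance matches more often. A match is a description of letters and not a tested site.

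Promoter windows, 250 bases before to 50 after each start, were found for 7 of the 9 members (RefSeq, GRCm38.p6). The E-box CACGTG lay in those of Per1, 166 to 161 bases before the start, and Cry1, 60 to 55 bases before it, against 7.15% of all promoters of that length. A ROR response element core, searched on both strands as TAGGTCA or TGGGTCA, lay in an Arntl promoter 30 to 36 bases after the start, against 6.45% of all promoters. It is printed because Arntl is the member that the REV-ERB receptors are best known to repress, with the element in capitals.
Arntl promoter, chr7:113207261-113207560, plus strand: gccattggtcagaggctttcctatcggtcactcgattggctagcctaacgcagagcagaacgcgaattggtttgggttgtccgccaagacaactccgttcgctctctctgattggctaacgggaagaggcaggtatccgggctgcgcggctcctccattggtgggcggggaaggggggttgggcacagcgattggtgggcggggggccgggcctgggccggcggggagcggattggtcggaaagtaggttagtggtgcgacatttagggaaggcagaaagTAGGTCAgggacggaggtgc
Neither D-box word that was searched (TTATGTAA or TTACGTAA, in 1.06% of all promoters) was in these windows of the members. Other forms of the D-box were not searched, so the windows may hold one. The cAMP response element TGACGTCA, in 1.79% of all promoters, was not in them either.

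Across the WT libraries, Bhlhe40 was the member with the highest level per coding length in dendritic cells, macrophages and CD4 T cells, and Nr1d1 the member with the lowest in every cell type. In CPM per kb, Bhlhe40 averaged 420.4 in dendritic cells, 113.9 in macrophages, 104.5 in CD4 T cells and 15.8 in B cells. Cry1 led in B cells at 17.4 CPM per kb. Nr1d1 averaged 1.94 CPM per kb in macrophages, 0.934 in B cells, 0.333 in CD4 T cells and 0.175 in dendritic cells. The plot of WT levels places the members on this scale.

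**Figure D1:**
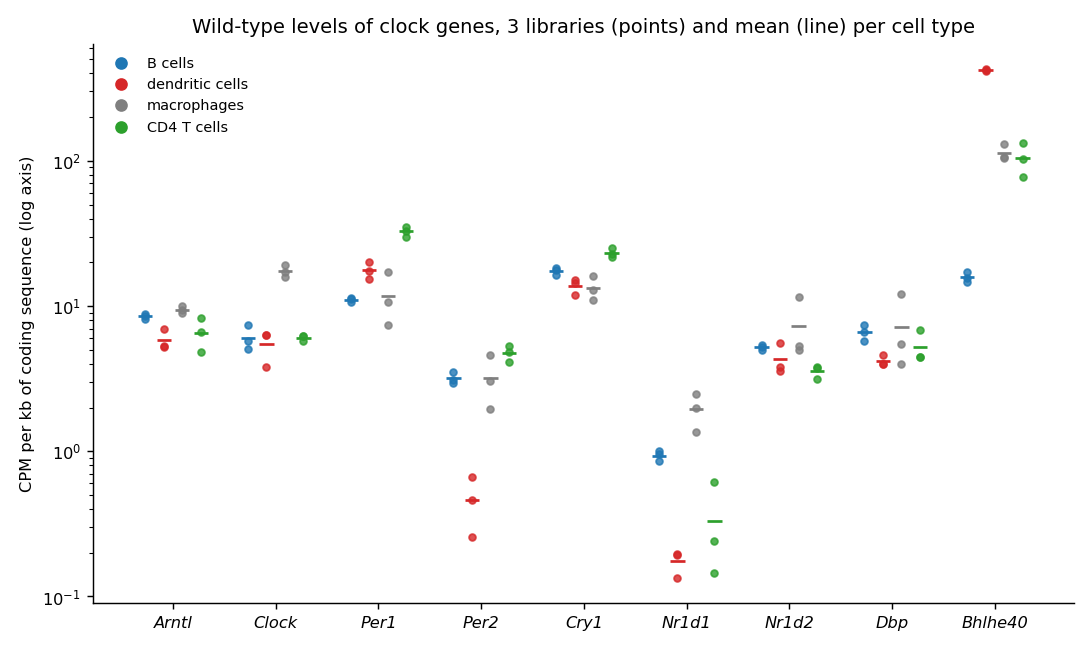
Level of each clock gene in WT libraries, as CPM per kb of coding sequence on a log axis, with 3 libraries (points) and their mean (line) for each cell type. Bhlhe40 spans from 15.8 in B cells to 420.4 in dendritic cells, while Arntl stays between 5.83 and 9.45.

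Arntl had its highest WT means in macrophages and B cells, and Clock in macrophages. In WT libraries Arntl averaged 17.95 ± 0.957 CPM in macrophages, 16.1 ± 0.687 in B cells, 12.5 ± 3.33 in CD4 T cells and 11.1 ± 1.81 in dendritic cells (SD, n = 3 each). B cells exceeded dendritic cells in Arntl by 0.54 on the log2 scale (SE 0.18, edgeR adjusted p = 0.016), a call that was lost without dendritic WT replicate 3 (adjusted p = 0.06). CD4 T cells overlapped with both neighbours in this order. Clock averaged 15.5 CPM in B cells, 14.03 in dendritic cells and 15.5 in CD4 T cells. In macrophages Clock averaged 44.8 ± 4.17, with no overlap with the other cell types and 2.9-fold over B cells.

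Among the PER and CRY repressors, Per2 set dendritic cells apart. Its WT level was 2.49, 0.966 and 1.74 CPM in the dendritic libraries, against 11.2, 11.6 and 13.2 in B cells and 18.3, 20.0 and 15.5 in CD4 T cells. The dendritic libraries lay below all others, by 2.77 on the log2 scale against B cells (SE 0.34, edgeR adjusted p = 7.9e-06), and Per2 was lower there than in CD4 T cells too (log2 difference -3.35, adjusted p = 1e-06). Per1, a paralog that is induced rapidly by many stimuli, had the reverse order between B and dendritic cells. It averaged 43.1 CPM in B cells, 68.9 in dendritic cells and 127 in CD4 T cells, and CD4 T cells exceeded both others (edgeR adjusted p = 6.9e-05 against B cells and 0.0023 against dendritic cells). The B against dendritic difference in Per1 was -0.68 (adjusted p = 0.013) and was lost without dendritic WT replicate 3 (adjusted p = 0.054). Cry1 was highest in CD4 T cells, at 45.5, 41.6 and 39.6 CPM, 0.74 above dendritic cells on the log2 scale (edgeR adjusted p = 3e-04). Its smaller differences between B cells and the other 2 types (adjusted p = 0.049 and 0.023) were lost when single libraries were left out.

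Nr1d1 was scarcely counted outside macrophages. The WT dendritic libraries held 3, 3 and 2 counts, the CD4 T libraries 5, 13 and 3, and the B cell libraries 16, 22 and 18. By pooled counts scaled for library size, B cells exceeded dendritic cells 5.35-fold in Nr1d1 (95% counting interval 2.54 to 13.0). They exceeded CD4 T cells 2.8-fold (1.67 to 4.87). The edgeR log2 differences were 2.37 from dendritic cells (adjusted p = 0.001) and 1.46 from CD4 T cells (adjusted p = 0.012, or 0.051 without T WT replicate 1). Without T WT replicate 2, which held 13 of the 21 CD4 T counts, the latter was 2.24. Intervals cover counting error only. Its paralog Nr1d2 was counted in every cell type, with WT means of 12.5 CPM in macrophages, 8.95 in B cells, 7.48 in dendritic cells and 6.15 in CD4 T cells. B cells and dendritic cells did not pass the test for Nr1d2 (log2 difference 0.25, edgeR adjusted p = 0.45). Bhlhe40 was 26.65-fold higher in WT dendritic cells than in WT B cells (edgeR adjusted p = 1.3e-10), and CD4 T cells lay between them.

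In all, 6 of the 9 members differed between WT B and dendritic cells, where 78.5% of all genes did. The counts were 4 of 9 between B and CD4 T cells, against 50.3% of all genes, and 4 of 9 between dendritic and CD4 T cells, against 79.4%. The members thus differed no more often than genes at large. Nr1d1 is among the 9, though its WT libraries held 8 counts in all in dendritic cells and 21 in CD4 T cells. Its lack of a call between those types says little.

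In KO dendritic cells Arntl, Nr1d2 and Dbp rose and Bhlhe40 fell. In KO B cells Arntl and Nr1d2 rose, and in KO CD4 T cells Per2 fell. These are 3 rises and 1 fall among 8 members tested in dendritic cells, where 12.2% of all genes rose and 9.42% fell. In B cells 2 of 9 rose and 0 fell, against 2.09% and 1.11% of all genes. In CD4 T cells 0 of 8 rose and 1 fell, against 1.35% and 0.798%. Without adjustment, p was under 0.05 for 6 members in dendritic cells, 3 in B cells and 2 in CD4 T cells. The median log2 fold change of the members tested was 0.68 in dendritic cells, 0 in B cells and 0.07 in CD4 T cells, beside medians over all genes of -0.01, 0 and 0. All changes in the next paragraphs are KO minus WT from edgeR's quasi-likelihood test within 1 cell type, with p-values adjusted over all genes tested there.

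**Figure D2:**
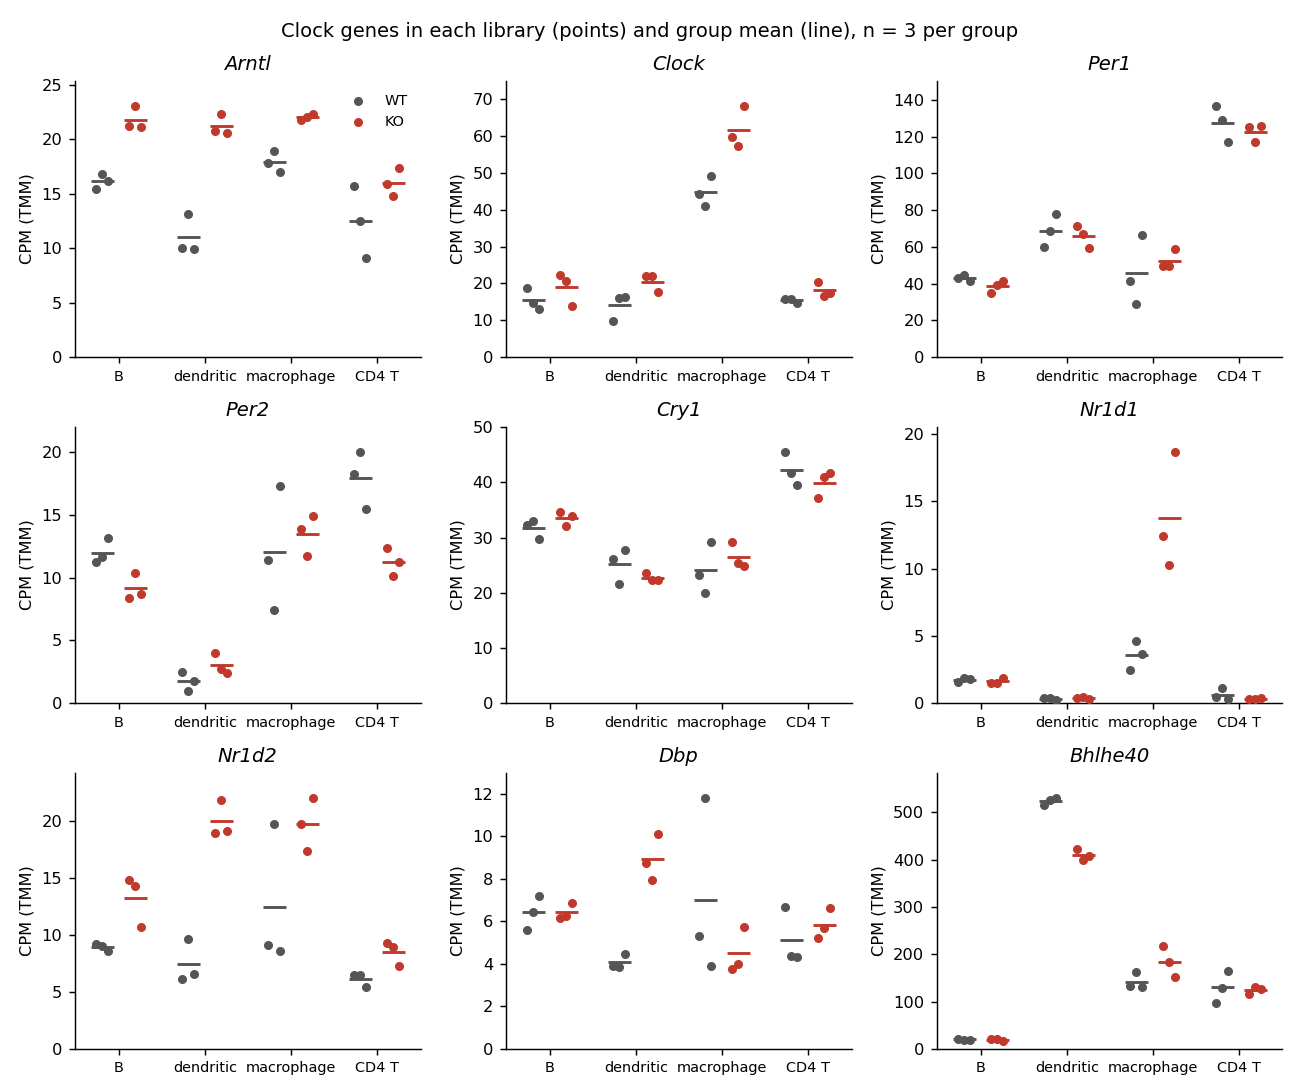
CPM of each clock gene in every library, WT in grey and KO in red, with the group mean as a line (n = 3 per group). Arntl and Nr1d2 separate the genotypes in B and dendritic cells, and Nr1d1 is high in the KO macrophage libraries, at 10.3 to 18.7 CPM.

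Arntl, the obligate partner of CLOCK, was higher in KO libraries of several cell types. In dendritic cells it was 10.1, 13.2 and 9.97 CPM in WT and 20.8, 22.3 and 20.6 in KO libraries. The groups did not overlap, and Arntl rose by 0.94 on the log2 scale (SE 0.14, adjusted p = 0.00088). In B cells the WT libraries were at 15.4, 16.8 and 16.2 CPM and the KO libraries at 21.3, 23.1 and 21.2. These groups were also separate, with a log2 change of 0.43 (SE 0.09, adjusted p = 0.015). In CD4 T cells Arntl was 15.8, 12.5 and 9.12 CPM in WT and 15.9, 14.8 and 17.4 in KO libraries, which overlapped (log2 change 0.36, SE 0.17, adjusted p = 0.29). Only 1 WT library, replicate 1, reached into the KO range, and without it the test passed (adjusted p = 0.035).

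Clock, the partner of Arntl, did not pass the test in any of the 3 cell types. Its dendritic WT libraries were at 9.72, 16.2 and 16.2 CPM and its KO libraries at 22.0, 21.9 and 17.6. The groups were separate, with WT replicate 1 well below the others (log2 change 0.55, SE 0.19, adjusted p = 0.059). Dendritic Clock did pass without a filter on low counts (adjusted p = 0.047), in a fit of all 24 libraries (0.042), with the replicate block (0.045) and without WT replicate 2 (0.038). The log2 change was 0.30 in B cells (SE 0.19, adjusted p = 0.5) and 0.22 in CD4 T cells (SE 0.10, adjusted p = 0.29).

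Nr1d2, which encodes REV-ERBβ, had the largest change of the members in dendritic cells. It was 6.16, 9.66 and 6.60 CPM in WT and 18.9, 21.9 and 19.2 in KO dendritic libraries. Every KO library lay well above every WT library, and the log2 change was 1.42 (SE 0.17, adjusted p = 0.00033). In B cells the WT libraries were close together at 9.24, 9.03 and 8.58 CPM, and the KO libraries lay above them at 14.9, 14.4 and 10.7. The log2 change in B cells was 0.58 (SE 0.14, adjusted p = 0.03). In CD4 T cells Nr1d2 was 6.50, 6.53 and 5.40 CPM in WT and 9.26, 8.95 and 7.31 in KO libraries, which did not overlap but missed the threshold (log2 change 0.46, SE 0.15, adjusted p = 0.12).

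Arntl and Nr1d2 rose in both B and dendritic cells, as 0.93% of the 9460 genes tested in both did. Both had all KO above all WT libraries in the 2 cell types, as 3.72% of those genes did. The B cell calls were weak: DESeq2 gave adjusted p = 0.057 for Arntl and 0.066 for Nr1d2, and a fit of all 24 libraries gave 0.2 and 0.47. Leaving out KO replicate 2, WT replicate 1 or WT replicate 2 lost both calls in B cells, and Nr1d2 was also lost without KO replicate 1 or WT replicate 3 (adjusted p from 0.055 to 0.13 over these). With the replicate number as a block 4 members passed in B cells, adding Clock (log2 change 0.29, adjusted p = 0.034) and Per2 (-0.38, adjusted p = 0.023), while the share of all genes that passed went from 3.2% to 12.4%.

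Nr1d1 gave no test in dendritic or CD4 T cells because its counts were too low. KO libraries held 3, 3 and 2 counts in dendritic cells and 3, 4 and 4 in CD4 T cells. In B cells the KO libraries were at 1.496, 1.52 and 1.86 CPM and the WT libraries at 1.57, 1.84 and 1.75, which overlapped (log2 change -0.10, SE 0.26, adjusted p = 0.91).

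Dbp, which encodes the D-box activator, rose in dendritic cells and passed in neither B nor CD4 T cells. It was 3.91, 3.86 and 4.49 CPM in WT and 8.74, 7.95 and 10.1 in KO dendritic libraries. The KO libraries all lay above the WT ones (log2 change 1.12, SE 0.18, adjusted p = 0.0016). In B cells the groups overlapped (log2 change 0.00, SE 0.15), as they did in CD4 T cells (0.19, SE 0.19).

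Bhlhe40 was the member that fell in dendritic cells. It was 515, 526 and 531 CPM in WT and 424, 399 and 409 in KO libraries, with every KO library lower. The log2 change was -0.35 (SE 0.07, adjusted p = 0.0048). It was lost in a fit of all 24 libraries (adjusted p = 0.074). In B cells the change was -0.03 (SE 0.10) and in CD4 T cells -0.06 (SE 0.21), with overlapping groups.

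Per2, the PER protein gene best known for its role in clock period, fell in CD4 T cells. WT libraries were at 18.3, 20.0 and 15.5 CPM and KO libraries at 12.4, 10.1 and 11.3. The groups were separate, and the log2 change was -0.68 (SE 0.12, adjusted p = 0.016). The call was lost without KO replicate 1, 2 or 3 or WT replicate 2 (adjusted p from 0.061 to 0.11), and in a fit of all 24 libraries (0.22). In B cells Per2 was also separate, at 11.2, 11.6 and 13.2 CPM in WT and 8.35, 10.4 and 8.73 in KO libraries, but did not pass (log2 change -0.39, SE 0.13, adjusted p = 0.12). In dendritic cells it was 2.49, 0.966 and 1.74 CPM in WT and 3.97, 2.74 and 2.42 in KO libraries, overlapping (log2 change 0.81, SE 0.35, adjusted p = 0.13, or 0.038 without WT replicate 1).

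Per1 and Cry1, a PER and a CRY repressor, passed in none of these cell types. Per1 log2 changes were -0.17 in B cells (SE 0.08, adjusted p = 0.3), -0.06 in dendritic cells (SE 0.11) and -0.06 in CD4 T cells (SE 0.06). For Cry1 they were 0.08 (SE 0.08), -0.15 (SE 0.12) and -0.08 (SE 0.07).

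**Figure D3:**
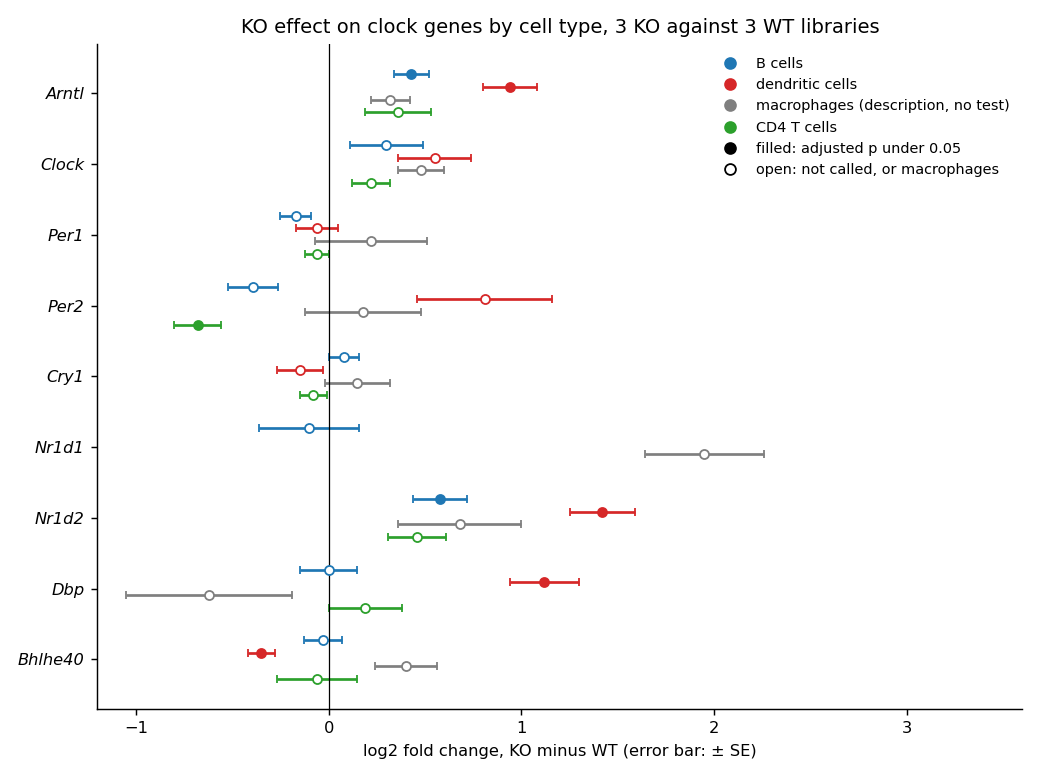
Log2 fold change of each clock gene, KO minus WT, with its SE, by cell type. Filled points passed adjusted p under 0.05, and macrophage points in grey are descriptions. Arntl and Nr1d2 lie above 0 in every cell type, while Per2 lies at 0.81 in dendritic cells and -0.68 in CD4 T cells.

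The cell types' KO effects were compared directly in a fit of all 24 libraries. The Per2 effect in dendritic cells exceeded that in CD4 T cells by 1.49 on the log2 scale (SE 0.43, edgeR adjusted p = 0.039), the only member of 9 to pass, where 6.1% of all genes did. This call was lost when any 1 of 9 libraries was left out (adjusted p from 0.053 to 0.15); it held without dendritic KO replicate 3, dendritic WT replicate 1 or CD4 T WT replicate 3. Dendritic against B cells gave 0 calls among the members, with 4 at an unadjusted p under 0.05 in edgeR, where 5.63% of all genes passed. The differences there were 1.20 for Per2 and 1.13 for Dbp (adjusted p = 0.11 each), 0.84 for Nr1d2 (0.16) and 0.51 for Arntl (0.14). B against CD4 T cells gave 0 calls and 0 at an unadjusted p under 0.05, where 0.0571% of all genes passed. Nr1d1 is among the 9 members in these fits, but was too low to test within dendritic or CD4 T cells. It held 8 counts in each dendritic group, and 21 in WT and 11 in KO CD4 T cells, so its lack of a call says little. The dendritic minus CD4 T differences were 0.58 for Arntl (edgeR adjusted p = 0.092), 0.95 for Nr1d2 (0.12) and 0.93 for Dbp (0.2). For Arntl this adjusted p ran from 0.0093 to 0.27 with single libraries left out. So in the main fit the size of the Arntl, Nr1d2 and Dbp effects was not shown to differ between dendritic cells and the other tested types.

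Marker sums differed by genotype in the dendritic libraries. The dendritic list of 6 genes, none at 0, summed to 11690 to 12470 CPM in WT and 15430 to 16170 in KO libraries, with no overlap. The macrophage list of 6 genes, none at 0, went from 43.51 to 80.01 in WT and from 34.94 to 40.27 in KO libraries, and the B cell list from 6.757 to 11.96 and from 12.58 to 23.45. Neutrophil markers, 6 genes of which Ly6g and Retnlg were at 0 throughout, were at 3.14 to 12.96 in WT and 1.644 to 2.119 in KO libraries. Stroma and mesothelium markers, with Msln and Upk3b at 0, were at 2.777 to 3.489 and 0.7947 to 1.279. Their part in the changes of Arntl, Nr1d2, Dbp and Bhlhe40 was not tested. In bulk RNA, a change in the share of cells that express a gene and a change in RNA per cell cannot be told apart.

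In macrophages, whose values chose the set, Nr1d1 was 2.49, 4.60 and 3.67 CPM in WT and 12.4, 10.3 and 18.7 in KO libraries. These are 24, 49 and 36 counts against 113, 92 and 170. All KO libraries were above all WT ones, the log2 difference was 1.95 (SE 0.31), a 3.87-fold difference, and it ranged from 1.67 to 2.17 when single libraries were left out. Over all genes 0.885% passed the test in macrophages, and nothing about the members is read from it. With pairing by replicate number, the same difference was 1.93 and 2.47% of genes passed. The Nr1d1 difference exceeded that in B cells by 2.03 on the log2 scale (SE 0.41), given without a test.

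Nr1d1 lies tail to tail with Thra, the thyroid hormone receptor α gene, on the opposite strand. In GENCODE M21, 197 of the 1845 coding bases of Nr1d1 (10.7%) are also coding in Thra, and the labels name no strand setting for the counting, so reads there cannot be told apart. Thra, looked up after the Nr1d1 values were seen, was at 43.5, 33.8 and 40.9 CPM in WT and 38.1, 39.7 and 45.3 in KO macrophages. Its groups overlapped, and the part of shared reads in the Nr1d1 difference was not tested.

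Other cells' markers also differed between the macrophage libraries. The list of 6 stroma and mesothelium genes, of which Msln was at 0 in KO replicate 3, summed to 238.8, 132.2 and 358.4 CPM in WT and 421.3, 333.4 and 768.9 in KO libraries. The groups overlapped, KO replicate 3 was highest in the list and in Nr1d1, and KO replicate 2 was the lowest KO library in both. The WT libraries went otherwise: replicate 2 was lowest in the list but highest of them in Nr1d1, and replicate 3 was highest in the list but not in Nr1d1. The macrophage list was at 11330, 12340 and 9756 CPM in WT and at 7275, 7809 and 7641 in KO libraries, while the dendritic list was at 229.6 to 318.9 and 353.4 to 434.9. Their part in the Nr1d1 difference was not tested.

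The other members in macrophages are likewise given without a test. Arntl was 17.9, 18.9 and 17.0 CPM in WT and 21.8, 22.1 and 22.3 in KO libraries, and Clock was 44.2, 40.9 and 49.2 against 59.7, 57.2 and 68.1. Both activators had all KO above all WT libraries, by 0.32 (SE 0.10) and 0.48 (SE 0.12) on the log2 scale. How many of all genes separate in this way in macrophages is not given here. Bhlhe40 was 133, 163 and 130 CPM in WT and 218, 185 and 152 in KO libraries, overlapping. Cry1 differed by 0.15 (SE 0.17). The median log2 difference over the 9 members was 0.32, beside -0.02 over all genes.

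The WT macrophage libraries disagreed with each other in Per1, Per2, Nr1d2 and Dbp. Per1 was 41.3, 28.9 and 66.4 CPM and Per2 was 11.4, 7.41 and 17.3, lowest in replicate 2 and highest in replicate 3. Nr1d2 was 9.14, 19.8 and 8.57 CPM and Dbp 5.30, 11.8 and 3.88, with replicate 2 the high one. The KO libraries were closer, from 17.4 to 22.1 CPM for Nr1d2 and from 3.74 to 5.71 for Dbp. Il6, the cytokine gene, was 22.6, 5.53 and 120 CPM in the same WT libraries, again lowest in replicate 2 and highest in replicate 3, and its part in these values was not tested. Without WT replicate 2 the KO minus WT log2 difference of Nr1d2 went from 0.68 to 1.17, that of Dbp from -0.62 to -0.02, that of Per1 from 0.22 to -0.02 and that of Per2 from 0.18 to -0.08.

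**Figure D4:**
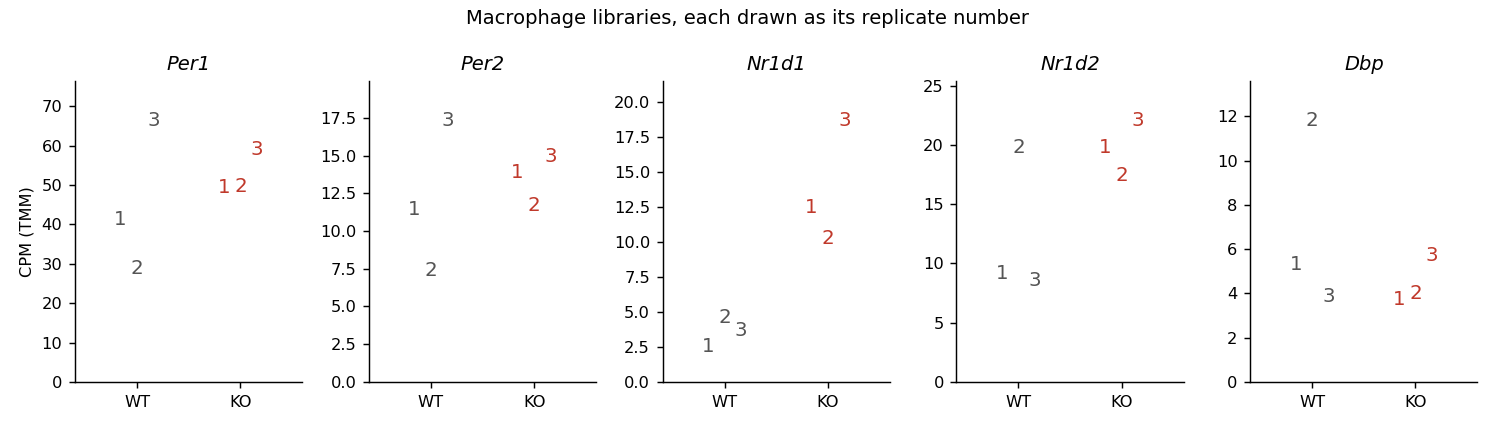
CPM of 5 clock genes in the 6 macrophage libraries, each drawn as its replicate number (WT grey, KO red). WT replicate 2 is lowest in Per1 and Per2 and highest of the WT libraries in Nr1d2 and Dbp, while Nr1d1 keeps the genotypes apart.

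The members' spread between libraries was largest in this group. The median SD of log2 CPM over the members was 0.42 in WT macrophages, beside 0.25 over 12249 genes, and 0.17 beside 0.12 in KO macrophages. In WT B cells both medians were 0.10. In WT CD4 T cells they were 0.19 for the members and 0.11 for all genes.

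Some pairs of members also varied together across libraries. With each cell type's mean subtracted, Arntl and Nr1d2 had a Pearson r of 0.86 over the 24 libraries, Clock and Nr1d2 0.71, and Arntl and Clock 0.66. With the group mean subtracted instead, which removes genotype, these fell to 0.42, 0.29 and 0.19. Per1 and Cry1 kept 0.62 and 0.65 under these, and Per1 and Dbp -0.50 and -0.55. With the group mean subtracted, Per2 and Cry1 had 0.65, Nr1d2 and Dbp 0.59, Cry1 and Nr1d2 -0.64, and Per2 and Nr1d2 -0.61. The largest r of Nr1d1 with any member were 0.39 and 0.40 under the same subtractions, both with Nr1d2. No r between other genes is given here as a background. These r describe libraries that share a cell type, a genotype and, in part, a depth. Per1, Cry1 and Dbp had their largest SD within a group in WT macrophages (19.1, 4.76 and 4.24 CPM). The r between them with the group mean subtracted thus lean on those libraries.

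The genes most like Nr1d1 were sought among the 9850 genes that averaged at least 5 CPM over the 24 libraries. With the cell type mean subtracted they were Rcc2 (r = 0.873), Tmc8 (0.847), Smc1a (0.823), Stam2 (0.811) and Rcc1 (0.806). Each of these averaged higher in KO than in WT macrophages, the contrast that chose the set. Nr1d1 was scarcely counted outside macrophages, so these r in part restate that contrast. RCC1, bound to chromatin, loads the GTPase RAN with GTP, and SMC1A is a cohesin subunit. Rcc2 averaged 54.75 CPM in WT and 77.01 in KO macrophages and 465.8 and 482 in B cells. Without subtraction, which follows the order of cell types, they were Tma16 (0.954), Rhot1 (0.941), Lmbrd1 (0.935), Copb1 (0.931) and Stard5 (0.928). Tma16 averaged 82.26 CPM in WT macrophages, 28.55 in B cells, 17 in CD4 T cells and 15.04 in dendritic cells.

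The wider clock list held 38 genes, the 9 members, 25 other clock genes and 4 genes outside the clock that REV-ERB proteins are reported to repress. In dendritic cells 27 were tested, 9 rose and 1 fell, where 12.2% and 9.42% of all genes did, and their median log2 change was 0.23. In B cells 28 were tested and 2 rose, both members (2.09% of all genes rose), with a median of -0.02. In CD4 T cells 28 were tested, 1 rose and 1 fell (1.35% and 0.798% of all genes), with a median of 0.01. Outside the members, dendritic cells gave 6 of the rises. In macrophages, as a description, 31 genes had a median difference of 0.16. There Ciart, a repressor of the activating pair, averaged 2.841 CPM in WT and 1.841 in KO libraries, and Rora, a ROR receptor, 8.075 and 10.09, both with separate groups. Csnk1d and Fbxw11 of the list were also separate, with KO above WT, as was Cx3cr1 with KO below WT. The share of all genes with separate groups in macrophages is not given here.

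Among activators, Arntl2, a paralog of Arntl, was 1.66, 1.81 and 1.99 CPM in WT and 4.77, 9.18 and 6.68 in KO dendritic libraries. It had the largest log2 change of the list there, 1.91 (SE 0.29, edgeR adjusted p = 0.0011). Npas2, a paralog of Clock, rose from 1.66 to 3.84 CPM on average (log2 change 1.20, SE 0.30, edgeR adjusted p = 0.018), a call lost without KO replicate 2 or 3 or WT replicate 3. Per3, a PER family gene, was 3.32, 4.23 and 3.86 CPM in WT and 9.80, 11.6 and 8.95 in KO libraries. Its groups were well apart (log2 change 1.41, SE 0.18, edgeR adjusted p = 0.00054). Tef, a relative of Dbp, rose from 14.8 to 22.7 CPM (0.62, SE 0.12, edgeR adjusted p = 0.0049).

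Fbxw11, a ubiquitin ligase subunit that acts on PER proteins, rose in dendritic cells from 114 to 161 CPM (log2 change 0.50, SE 0.09, edgeR adjusted p = 0.004). Nfil3, the D-box repressor, rose in dendritic cells from 563 to 668 CPM (0.24, SE 0.07, edgeR adjusted p = 0.039) and in CD4 T cells from 15.9 to 23.2 CPM (0.55, SE 0.12, edgeR adjusted p = 0.034). The dendritic Nfil3 call was lost without KO replicate 1, 2 or 3 or WT replicate 3, without a filter (adjusted p = 0.053), with the replicate block (0.065) and in a fit of all 24 libraries (0.097). The CD4 T cell call was lost when any KO library or WT replicate 2 was left out.

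**Figure D5:**
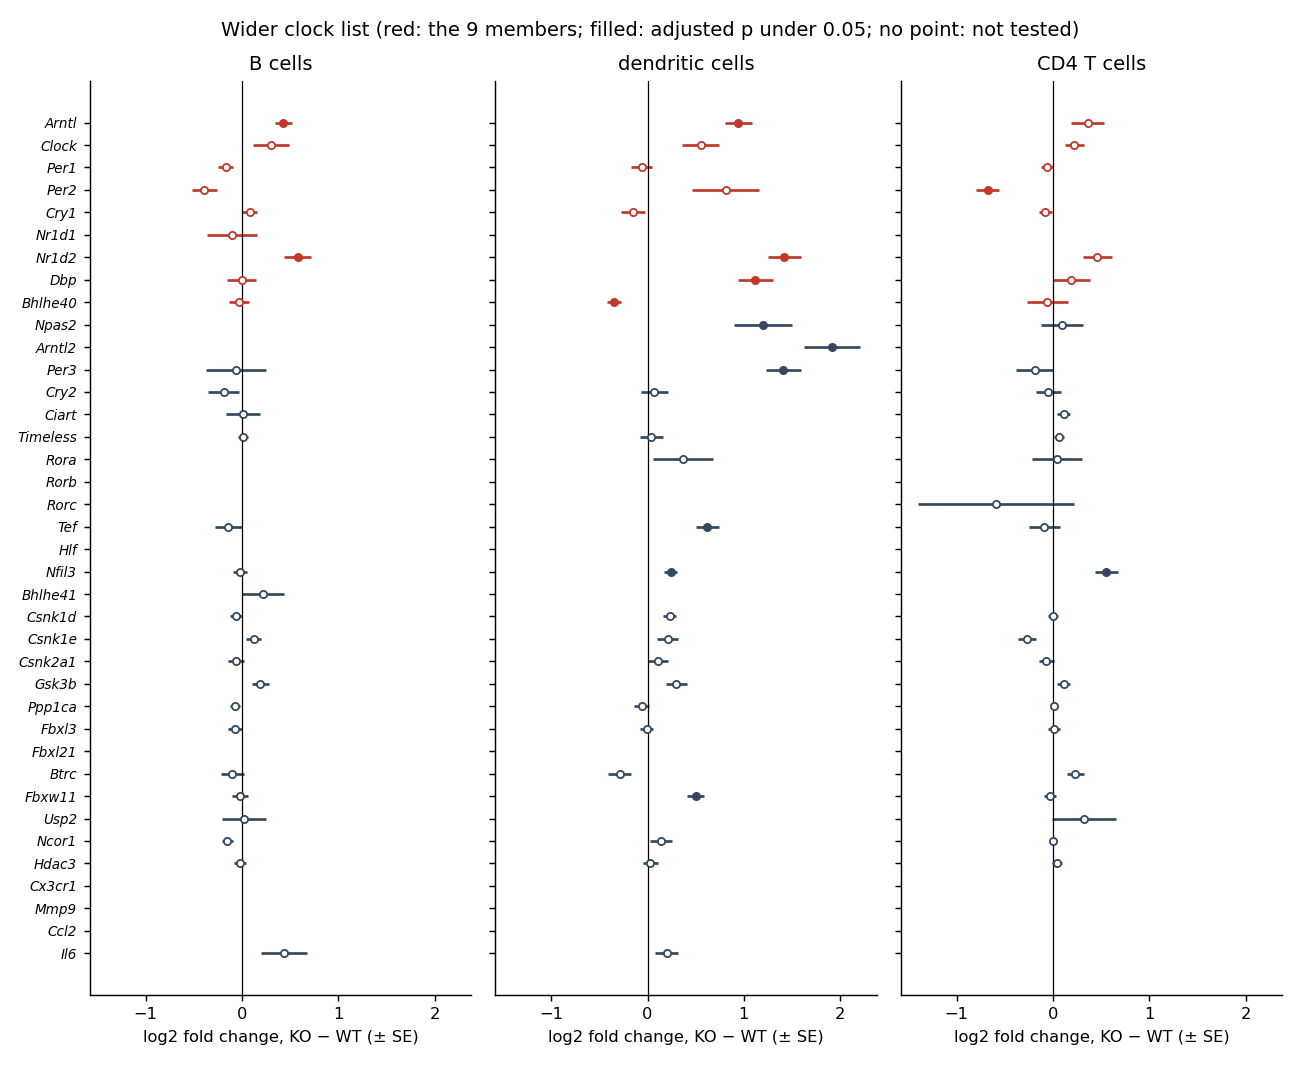
Log2 fold change with SE of the 38 genes of the wider clock list in B, dendritic and CD4 T cells, members in red. Filled points passed adjusted p under 0.05, and genes without a point were too low to test. Dendritic cells hold 10 filled points, beside 2 in B cells and 2 in CD4 T cells, where 21.6%, 3.2% and 2.15% of all genes passed.

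The list held 4 genes outside the clock that REV-ERB proteins are reported to repress. In macrophages the chemokine gene Ccl2 was 368, 191 and 481 CPM in WT and 126, 200 and 221 in KO libraries, overlapping (log2 difference -0.91, SE 0.36). Il6 was 22.6, 5.53 and 120 CPM in WT and 18.5, 17.8 and 28.6 in KO libraries, also overlapping (log2 difference -1.18, SE 0.93). Mmp9 differed by 0.54 (SE 0.63). Cx3cr1, too low to test, had 7, 5 and 1 counts in WT and 0 in each KO library. The means of Ccl2 and Cx3cr1 were thus lower in KO. That of Il6 was lower only through WT replicate 3, and that of Mmp9 was higher by less than its SE. These values come from the contrast that chose the set and carry no test. Outside macrophages only Il6 of these genes was high enough to test, and it did not pass. Its log2 change was 0.20 in dendritic cells (SE 0.12, edgeR adjusted p = 0.27) and 0.44 in B cells (SE 0.24, adjusted p = 0.39).

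Set against the seed matches, the members with 7mers were Arntl, Clock and Bhlhe40. Arntl rose in B and dendritic cells, Clock passed in no tested cell type (adjusted p = 0.059 in dendritic cells, and from 0.038 to 0.047 under 4 alternatives), and Bhlhe40 fell in dendritic cells. Nr1d2, with 6mers only, had a larger change in dendritic cells (1.42) than Arntl (0.94). Dbp rose there with no match in its UTR. Nr1d1, also with none, was 3.87-fold higher in KO macrophages, the difference that chose the set. Whether miR-155 acts on any member through these matches was not tested.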

How the data were processed

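Total RNA libraries (TruSeq, paired reads) were processed by the authors with cutadapt and STAR on mouse build mm9, per the submitters' processing notes. The deposited values are whole-number counts per gene over coding sequence, as the file names state. Which counter, strand setting and annotation were used is not given in the sources used here. Read pairs assigned to no gene, 51.7 to 61.4% per library, stayed out. No 2 libraries matched within sampling noise. Members and lists were chosen with earlier results of these data known. A few genes of those lists are not reported here and were left out of the counts and sums.

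Each cell type's 3 KO and 3 WT libraries were compared with edgeR 4.0.16 in R 4.3.3 (TMM, filterByExpr, robust quasi-likelihood F test, Benjamini-Hochberg over all genes tested, 0.05, two-sided). WT cell types used a fit of the 12 WT libraries, and differences of KO effects a fit of all 24. Fold change errors are the log2 change over the root of F. Alternatives were RLE scaling, DESeq2 1.42.0, other filters, a fit of all libraries, a replicate block and each library left out. The fits were tested on simulated data. Correlations of same-numbered KO and WT libraries' deviations exceeded 0.1 in all pairs in macrophages (0.125, 0.299 and 0.385), taken as paired; B cells had 0.184, 0.029 and 0.216. All 9 members are named. Other genes of the wider list are named where called or, in macrophages, where the KO and WT groups were separate. The reported REV-ERB targets, Thra and the 5 genes most like Nr1d1 by r are named too. Coordinates are GRCm38, not the files' build.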

Additional observations from a re-analysis of the deposited data

Results flagged for a closer look

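The effect of the KO on Per2 passed the test of a difference between cell types. The log2 change in dendritic cells minus that in CD4 T cells was 1.49 in edgeR's test of the difference over all 24 libraries (SE 0.43, adjusted p = 0.039). Leaving out 1 library lost this call in 9 of 12 cases, with adjusted p up to 0.15. Per2 was higher in KO dendritic libraries on average (1.73 to 3.04 CPM, with overlapping groups) and lower in every KO CD4 T library than in any WT one (17.9 to 11.3 CPM on average). Its dendritic counts were the lowest of the 4 cell types.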

How the results depend on the processing

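In dendritic cells the rises of Arntl, Nr1d2 and Dbp passed under every alternative run, and 4 to 5 members passed with single libraries left out. In B cells the 2 calls became 0 with DESeq2 (3 at an unadjusted p under 0.05), 0 in a fit of all 24 libraries (2 unadjusted), 4 with the replicate block, and 0 to 3 with single libraries left out. In CD4 T cells the 1 call became 0 in a fit of all 24 libraries (2 unadjusted) and 0 to 2 with libraries left out. The dendritic minus CD4 T effect gave 0 to 2 members with libraries left out. The macrophage median of the members was 0.27 to 0.47 with libraries left out.

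Over all genes, B cell calls went from 325 to 501 without a filter, 81 in the fit of all libraries, 1260 with the replicate block and 141 to 441 with libraries left out. Dendritic calls (2279) went from 1176 to 2870 with libraries left out. Macrophage calls (95) became 547 in DESeq2, 1755 in the fit of all libraries, 265 with the replicate block and 0 to 2746 with libraries left out (0 when WT replicate 1 or either of KO replicates 1 and 2 was dropped, with 1125 to 1213 at an unadjusted p under 0.05 in edgeR). CD4 T cell calls (223) became 478 without a filter, 63 in the fit of all libraries and 32 to 598 with libraries left out. Differences of KO effects gave 432 to 821 genes for dendritic minus B cells, 2 to 10 for B minus CD4 T cells and 457 to 799 for dendritic minus CD4 T cells with libraries left out. The cause was not tested. In B, dendritic and CD4 T cells not all same-numbered pairs correlated above 0.1, so these libraries were not taken as paired. In B cells 0.184 and 0.216 lay above it and 0.029 did not. The block changed no call of a member other than Clock and Per2 in B cells and Clock in dendritic cells (edgeR adjusted p = 0.045).

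With 1 library left out, small log2 differences changed sign. Bhlhe40 in B cells was 0.04 without KO replicate 3 or WT replicate 1. Per1 in dendritic cells was 0.01 without KO replicate 3 and 0.04 without WT replicate 3 (-0.16 to 0.04 over all libraries left out), and Bhlhe40 in CD4 T cells 0.15 without WT replicate 3 (-0.23 to 0.15). In macrophages without WT replicate 2, Per1 was -0.02 (-0.02 to 0.61) and Per2 -0.08 (-0.08 to 0.55). Between WT cell types, Clock in B minus dendritic cells was -0.02 without B replicate 1 and -0.05 without dendritic replicate 1 (-0.05 to 0.26), Clock in dendritic minus CD4 T cells 0.06 without dendritic replicate 1 (-0.25 to 0.06), and Arntl 0.03 without CD4 T replicate 1 (-0.35 to 0.03). Depth limits Nr1d1, at 2 to 13 counts per dendritic or CD4 T library.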
